A study of Mus musculus with 12 samples.

Results

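The genes described here are 41 genes of motile cilia, chosen by name as rows of the deposited normalized expression table. The table held 32494 genes; 40 members were found under the given symbol, and Dnai2 under its older symbol Dnaic2. All 41 had a mean of at least 1 CPM (normalized reads per megaread) over the 12 libraries and were tested. RNA was sequenced from the hypothalamus of 12 male mice, 5 weeks after tamoxifen, with an age of 8 weeks in the labels. By the labels, the 7 libraries labelled WT came from mice with floxed Smc3 and no Camk2a-cre/ERT2 transgene. The 5 libraries labelled cKO came, by the same source, from mice with floxed Smc3 that carried Camk2a-cre/ERT2. Mice of both groups received tamoxifen and carried floxed Smc3, so the WT label does not mean an unmodified mouse. Camk2a-cre/ERT2 makes a tamoxifen-activated recombinase under a promoter of forebrain excitatory neurons, which do not carry motile cilia. The labels do not give the share of cells that recombined. The question was whether Dnah7b, a dynein gene known beforehand to be lower in the libraries labelled cKO, was lower together with the other genes of motile cilia or alone.

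Motile cilia are beating, microtubule-based hairs, and in the brain they are carried in tufts by the ependymal cells that line the ventricles, including the ventricle within the hypothalamus. Their core, the axoneme, has an outer ring of microtubule doublets and a central pair. Dynein arms on the doublets produce the beat, and radial spokes, the nexin link and the central apparatus regulate it. The transcription factor Foxj1 switches on most of these genes, together with factors of the RFX family, which bind a sequence called the X-box. In whole tissue, fewer cells of a type and less RNA per cell cannot be told apart.

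Smc3, the floxed gene, went against its label. It was at 76.8 to 85.7 CPM in the libraries labelled WT and at 116 to 144 CPM in those labelled cKO, a log2 fold change of 0.67 (limma, SE 0.05, adjusted p = 3.06e-05). The values are per gene, so the floxed exons could not be read apart from the rest. Whether the labels of the 2 groups were exchanged was not tested, and an exchange would turn every direction below, so each direction refers to the libraries as labelled. Library WT 1 was sequenced more deeply than the rest, at 68.7 M (megareads) against 17.1 to 24.0 M in the other 11. By limma, 2172 of 15359 tested genes (14.1%) were past an adjusted p of 0.05. In the libraries labelled cKO, 1004 (6.54%) were higher and 1168 (7.6%) lower.

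Dnah7b has a pair of close paralogs, Dnah7a and Dnah7c, and all lie on chromosome 1. Each encodes an inner arm dynein heavy chain. Their sequences are shown because reads must be told apart by few bases. Aligned over their longest GENCODE M21 transcripts, Dnah7b and Dnah7c were identical at 97.29% of aligned bases, Dnah7a and Dnah7b at 96.86%, and Dnah7a and Dnah7c at 96.87%. The same 90 bases of the 3 transcripts, from base 5062 in Dnah7b, 4999 in Dnah7a and 4951 in Dnah7c, differ at 4 positions, which are in capitals:
Dnah7a: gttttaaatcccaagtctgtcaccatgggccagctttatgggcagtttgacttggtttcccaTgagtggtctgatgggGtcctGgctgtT
Dnah7b: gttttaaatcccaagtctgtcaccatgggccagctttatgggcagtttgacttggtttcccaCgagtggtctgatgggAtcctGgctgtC
Dnah7c: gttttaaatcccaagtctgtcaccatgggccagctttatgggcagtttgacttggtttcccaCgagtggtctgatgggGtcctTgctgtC
Of all 100-base windows, 23.5% in Dnah7b, 24.88% in Dnah7c and 19.96% in Dnah7a occurred without change in a paralog. At 50 bases the shares were 48.4%, 48.5% and 40.3%, and at 150 bases 11%, 13.31% and 10.42%. How reads that match more than 1 of the 3 were counted is not given in the sources used here, so the level of each paralog is uncertain by an unknown amount.

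The promoters are shown because all 3 paralogs hold the same X-box-like repeat. The stretches are from RefSeq on GRCm38.p6, 5′ to 3′ on the gene's strand, with the repeat in capitals. They lie at chr1:53706785-53706884 on the minus strand (Dnah7a), chr1:46066753-46066852 on the plus strand (Dnah7b), chr1:46425418-46425517 on the plus strand (Dnah7c), chr11:66168552-66168651 on the minus strand (Dnah9) and chr16:44394699-44394798 on the plus strand (Cfap44):
Dnah7a: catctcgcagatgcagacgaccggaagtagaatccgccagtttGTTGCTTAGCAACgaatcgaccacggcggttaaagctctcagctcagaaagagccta
Dnah7b: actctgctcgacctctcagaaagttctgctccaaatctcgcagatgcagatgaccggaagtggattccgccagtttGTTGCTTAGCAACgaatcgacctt
Dnah7c: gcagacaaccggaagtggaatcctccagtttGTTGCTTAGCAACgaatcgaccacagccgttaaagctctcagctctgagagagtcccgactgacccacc
Dnah9: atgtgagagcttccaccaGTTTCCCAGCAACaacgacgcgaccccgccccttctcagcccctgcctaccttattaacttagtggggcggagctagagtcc
Cfap44: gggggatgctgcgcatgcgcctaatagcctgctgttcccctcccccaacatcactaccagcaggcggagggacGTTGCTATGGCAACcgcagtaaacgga
Dnah9, an outer arm heavy chain, was the member most like Foxj1 across mice, and Cfap44, which has a role in tethering inner arm dynein, carries the longer form of the repeat. The last base of the repeat lay 12 bases before the RefSeq start of Dnah7b, 57 before that of Dnah7c and 45 before that of Dnah7a.

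The repeats searched were GTTNCNNNGNAAC, of 13 bases, and GTTNCNNNNGNAAC, of 14, which differ by 1 spacer base. Each reads the same on both strands. At least 1 of them was present in 10 of the 34 members with a RefSeq promoter entry (29.4%), against 619 of 27025 genes with an entry (2.29%). The members were Dnah6, Dnah7a, Dnah7b, Dnah7c, Dnah9, Dynlrb2, Hydin, Spag16, Tekt4 and Cfap44, and Tekt4 held both forms. Of these 10, the Dnah7 paralogs share sequence through their common origin and are not independent matches. Foxj1, Rsph1, Rsph4a, Cfap54, Dnai2, Cfap65 and Dnah3 had no entry. A match is a description of letters and not a binding site shown by these data.

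Dnah7b was lower in every library labelled cKO than in any labelled WT. It was at 18.6 CPM in the lowest library labelled WT, 24.6 in the median one and 27.0 in the highest. In the libraries labelled cKO it was at 12.5 CPM (cKO 8), 11.9 (cKO 9), 14.3 (cKO 12), 13.3 (cKO 13) and 13.9 (cKO 14). The groups did not overlap, and the spread within the cKO group was narrow. The means were 23.3 ± 3.22 CPM (n = 7, SD) and 13.2 ± 0.983 CPM (n = 5, SD), a ratio of 0.568. The log2 fold change on log2(CPM + 1) was -0.76 (limma, SE 0.09, adjusted p = 0.000892). By p-value Dnah7b ranked 12th of the 15359 tested genes, and 54 tested genes had a lower log2 fold change. It was the only 1 of the 41 members whose group ranges did not overlap, where 3.2% of all tested genes had a cKO range entirely below the WT range and 6.73% had no overlap in either direction.

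Dnah7c, the paralog closer in sequence, was also lower but much less abundant. Its lowest, median and highest values in the libraries labelled WT were 3.99, 5.65 and 7.30 CPM. The libraries labelled cKO were at 4.07 (cKO 8), 2.79 (cKO 9), 4.24 (cKO 12), 4.18 (cKO 13) and 3.20 CPM (cKO 14), so that the highest of them lay just above the lowest library labelled WT. The log2 fold change was -0.44 (limma, SE 0.13, adjusted p = 0.0353), on 54 to 393 reads per library. The call was lost in 6 of 12 fits without 1 mouse (WT 1, WT 6, WT 11, WT 15, cKO 9 or cKO 14), with adjusted p up to 0.0888.

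Dnah7a was the least abundant of the 3 and did not pass the test. It was at 2.12, 2.79 and 3.71 CPM in the lowest, median and highest library labelled WT. In the libraries labelled cKO it was at 3.48 (cKO 8), 1.62 (cKO 9), 2.10 (cKO 12), 1.90 (cKO 13) and 2.72 CPM (cKO 14), overlapping the WT range widely. The log2 fold change was -0.20 (limma, SE 0.13, adjusted p = 0.327), on 33 to 192 reads. Per kilobase of transcript, the mean level in the libraries labelled WT was 1.89 CPM for Dnah7b, 0.442 for Dnah7c and 0.231 for Dnah7a. Per kilobase of all annotated exonic bases, of which Dnah7b has the most, these were 1.16, 0.428 and 0.221 CPM, in the same order.

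The difference between Dnah7b and each of 3 other genes was tested within libraries. The log2 level of Dnah7b minus that of Dnah7a averaged 2.66 ± 0.175 (n = 7, SD) in the libraries labelled WT and 2.10 ± 0.312 (n = 5, SD) in those labelled cKO. This is a difference of -0.56 (exact permutation of the labels, two-sided, p = 0.00126, the smallest this design can give; 0.00379 adjusted over 3 comparisons). Against Dnah7c the difference was -0.32 (exact permutation p = 0.0114, adjusted 0.0114). Against Foxj1 it was -0.82 (exact permutation p = 0.00379, adjusted 0.00568). On log2(CPM + 1) Dnah7b was therefore lower relative to each of the 3. This scale understates changes of low genes such as Dnah7a and Dnah7c, which can widen the differences from them. These p-values start from a gene already known to be low and are not independent evidence of its direction.

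**Figure D1:**
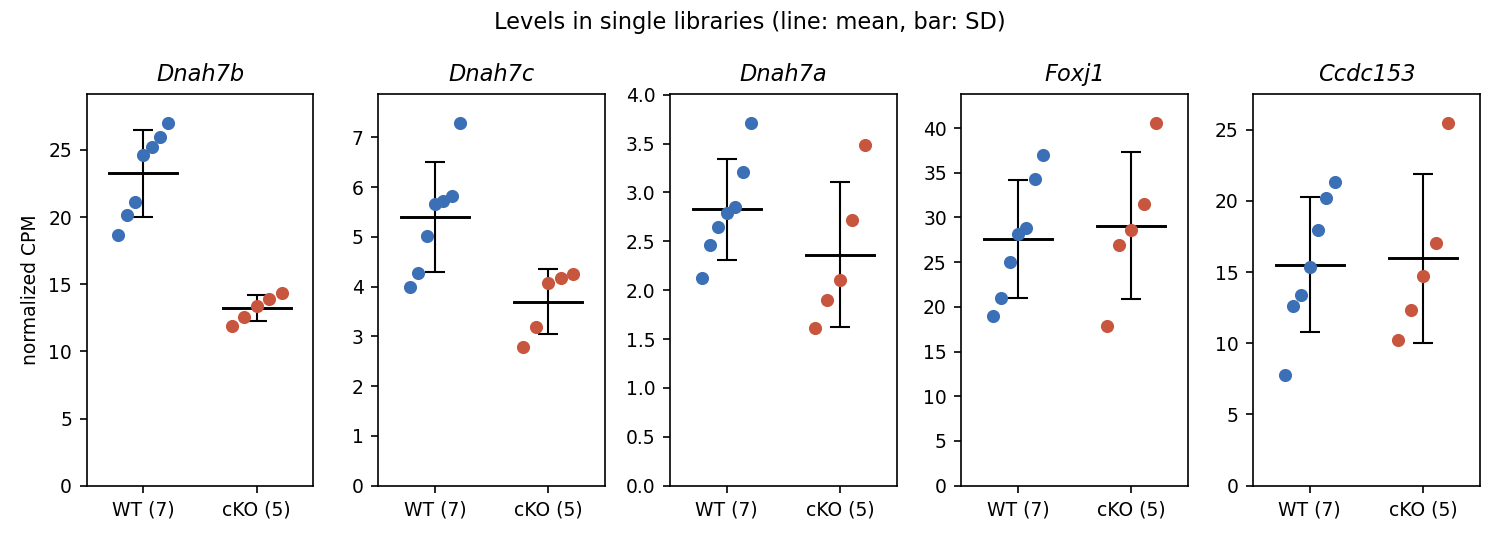
Normalized CPM (vertical axis, each panel with its own scale from 0) of Dnah7b, Dnah7c, Dnah7a, Foxj1 and Ccdc153 in single libraries labelled WT (blue, 7) and cKO (red, 5), with the mean as a line and the SD as a bar. Dnah7b is at 18.6 to 27.0 CPM in WT and 11.9 to 14.3 CPM in cKO, while the groups overlap for the other 4 genes.

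The markers of ependymal cells were present in every library and did not pass the test. Foxj1 was at 18.9, 28.1 and 37.0 CPM in the lowest, median and highest library labelled WT. It was at 40.6 (cKO 8), 27.0 (cKO 9), 28.5 (cKO 12), 17.9 (cKO 13) and 31.5 CPM (cKO 14) in those labelled cKO. Both the highest and the lowest of all 12 libraries were labelled cKO, and the log2 fold change was 0.06 (limma, SE 0.19, adjusted p = 0.859).

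Ccdc153, an axonemal gene used as an ependymal marker, was likewise highest in cKO 8 and low in WT 4 and cKO 13. Its lowest, median and highest values in the libraries labelled WT were 7.74, 15.4 and 21.3 CPM. The libraries labelled cKO were at 25.5 (cKO 8), 14.7 (cKO 9), 12.4 (cKO 12), 10.2 (cKO 13) and 17.0 CPM (cKO 14), and the log2 fold change was 0.03 (limma, SE 0.24, adjusted p = 0.943). Tmem212, a membrane protein gene and ependymal marker, was at 4.24, 5.48 and 7.34 CPM in the lowest, median and highest library labelled WT. It was at 10.4 (cKO 8), 6.32 (cKO 9), 4.80 (cKO 12), 3.94 (cKO 13) and 6.69 CPM (cKO 14), with a log2 fold change of 0.09 (limma, SE 0.18, adjusted p = 0.769). In both genes the library cKO 8 was the highest of all 12. Rarres2 and Mia, also listed as ependymal markers, averaged 8.41 and 2.84 CPM in the libraries labelled WT and 9.24 and 3.66 CPM in those labelled cKO, with limma adjusted p of 0.712 and 0.251.

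Of the 41 members, 2 (4.88%) were past the threshold, against 14.1% of all tested genes. Both, Dnah7b and Dnah7c, were lower, where 7.6% of all tested genes were. By limma 0 members were higher, as by edgeR and DESeq2. At an unadjusted p under 0.05 the members numbered 5 of 41, all lower, beside 31.1% of all tested genes in either direction and 15% in the lower direction. The log2 fold change was negative in 22 and positive in 19, with a median of -0.01, beside 0.01 over all tested genes. Single mice moved the median of the members across 0. It was -0.16 without cKO 8, -0.11 without WT 4 and 0.09 without cKO 13, and between -0.07 and 0.05 when any 1 of the other 9 was left out. With the thalamic marker score described below as a covariate it was -0.17, and under median centring 0.00154, beside 0.0232 over all tested genes. The summed level of the 41 genes ranged from 344 to 659 CPM in the libraries labelled WT and from 353 to 680 CPM in those labelled cKO.

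Inner arm heavy chains, the motors nearest the central pair, held both calls. Of the 9, log2 fold changes were negative in 8, with a median of -0.25. Besides the Dnah7 paralogs, Dnah10 had -0.45 (SE 0.23, adjusted p = 0.209 by limma), Dnah2 -0.37 (SE 0.21, 0.236), Dnah12 -0.25, Dnah3 -0.24, Dnah6 -0.15 and Dnah1 0.04. None of these 6 was past the threshold in the fit without covariates. With the correction for GC content and length described below, Dnah10 was at -0.28 and Dnah2 at -0.21.

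Among the outer arm heavy chains, which supply most of the power of the beat, none of 4 passed and the median was -0.09. Dnah17 had a log2 fold change of -0.34 (limma, SE 0.12, adjusted p = 0.0655), Dnah11 of -0.10, Dnah9 of -0.08 and Dnah5 of 0.24 (limma, SE 0.20, adjusted p = 0.447). With the correction for GC content and length Dnah17 was at -0.16 (limma adjusted p = 0.379). Dnah5 was the member with the highest log2 fold change in the main fit, at 0.239, narrowly ahead of Drc1 (0.237) and Tekt4 (0.234). Without 1 mouse the value of Dnah5 ran from 0.11 to 0.37. With the thalamic marker score described below as a covariate it was 0.06, where Drc1 was at 0.23. Dnah5 was at 9.47, 17.3 and 23.2 CPM in the lowest, median and highest library labelled WT. In those labelled cKO it was at 28.4 (cKO 8), 18.5 (cKO 9), 19.3 (cKO 12), 13.2 (cKO 13) and 21.7 CPM (cKO 14), so the groups overlapped. The smaller dynein chains were nearly level: the outer arm intermediate chain Dnai2 had a log2 fold change of 0.01, the inner arm light intermediate chain Dnali1 of -0.00271 and the roadblock light chain Dynlrb2 of 0.01.

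The regulatory parts of the axoneme held no call. The radial spoke head genes Rsph1, Rsph4a and Rsph9 had log2 fold changes of 0.15, 0.12 and 0.13, with limma adjusted p of at least 0.479. Ccdc39 and Ccdc40, which together form the ruler that spaces the arms along a doublet, had -0.19 and 0.03. Drc1 and Drc7, of the nexin-dynein regulatory complex, had 0.24 and -0.06. Drc1 was at 14.1, 19.3 and 21.9 CPM in the lowest, median and highest library labelled WT. It was at 29.9 (cKO 8), 20.1 (cKO 9), 18.2 (cKO 12), 18.5 (cKO 13) and 21.96 CPM (cKO 14), with overlapping groups and a limma adjusted p of 0.250 (SE 0.13).

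Of the 6 genes of the central apparatus, which surrounds the central pair, log2 fold changes ran from -0.33 in Cfap46 (limma, SE 0.13, adjusted p = 0.1102) to 0.07 in Cfap54. Hydin had -0.18, Spag17 -0.15, Spef2 -0.04 and Spag16 0.06. The tektins, filament proteins inside the doublets, had 0.12 in Tekt1 and 0.23 in Tekt4 (limma, SE 0.13, adjusted p = 0.245). Tekt4 was at 1.68, 3.02 and 3.43 CPM in the lowest, median and highest library labelled WT. It was at 4.87 (cKO 8), 3.14 (cKO 9), 2.85 (cKO 12), 3.61 (cKO 13) and 3.61 CPM (cKO 14), and the lowest library, WT 4, stood apart from the other 6 of its group.

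The remaining axonemal genes included the member nearest to Dnah7b in fold change. Cfap65, a cilia and flagella associated protein gene, was at 10.2, 22.5 and 28.8 CPM in the lowest, median and highest library labelled WT. It was at 15.7 (cKO 8), 8.82 (cKO 9), 14.5 (cKO 12), 6.84 (cKO 13) and 10.5 CPM (cKO 14). The groups overlapped across WT 4, WT 5 and WT 7, and the log2 fold change of -0.72 had an SE of 0.26 (limma adjusted p = 0.0748), against 0.09 for Dnah7b. Without WT 4 it was -0.86 with a limma adjusted p of 0.03505, past the threshold.

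Cfap44 was at 11.9, 21.8 and 27.9 CPM in the lowest, median and highest library labelled WT. It was at 22.1 (cKO 8), 11.5 (cKO 9), 16.3 (cKO 12), 9.59 (cKO 13) and 12.4 CPM (cKO 14), with a log2 fold change of -0.46 (limma, SE 0.22, adjusted p = 0.175). Its partner Cfap43, of the same tether of inner arm dynein, had a log2 fold change of -0.08. Cfap52, a protein within the doublets, had 0.21, the adenylate kinase gene Ak7 -0.01, Ccdc113 0.03 and Mlf1 0.09, and none of these passed.

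**Figure D2:**
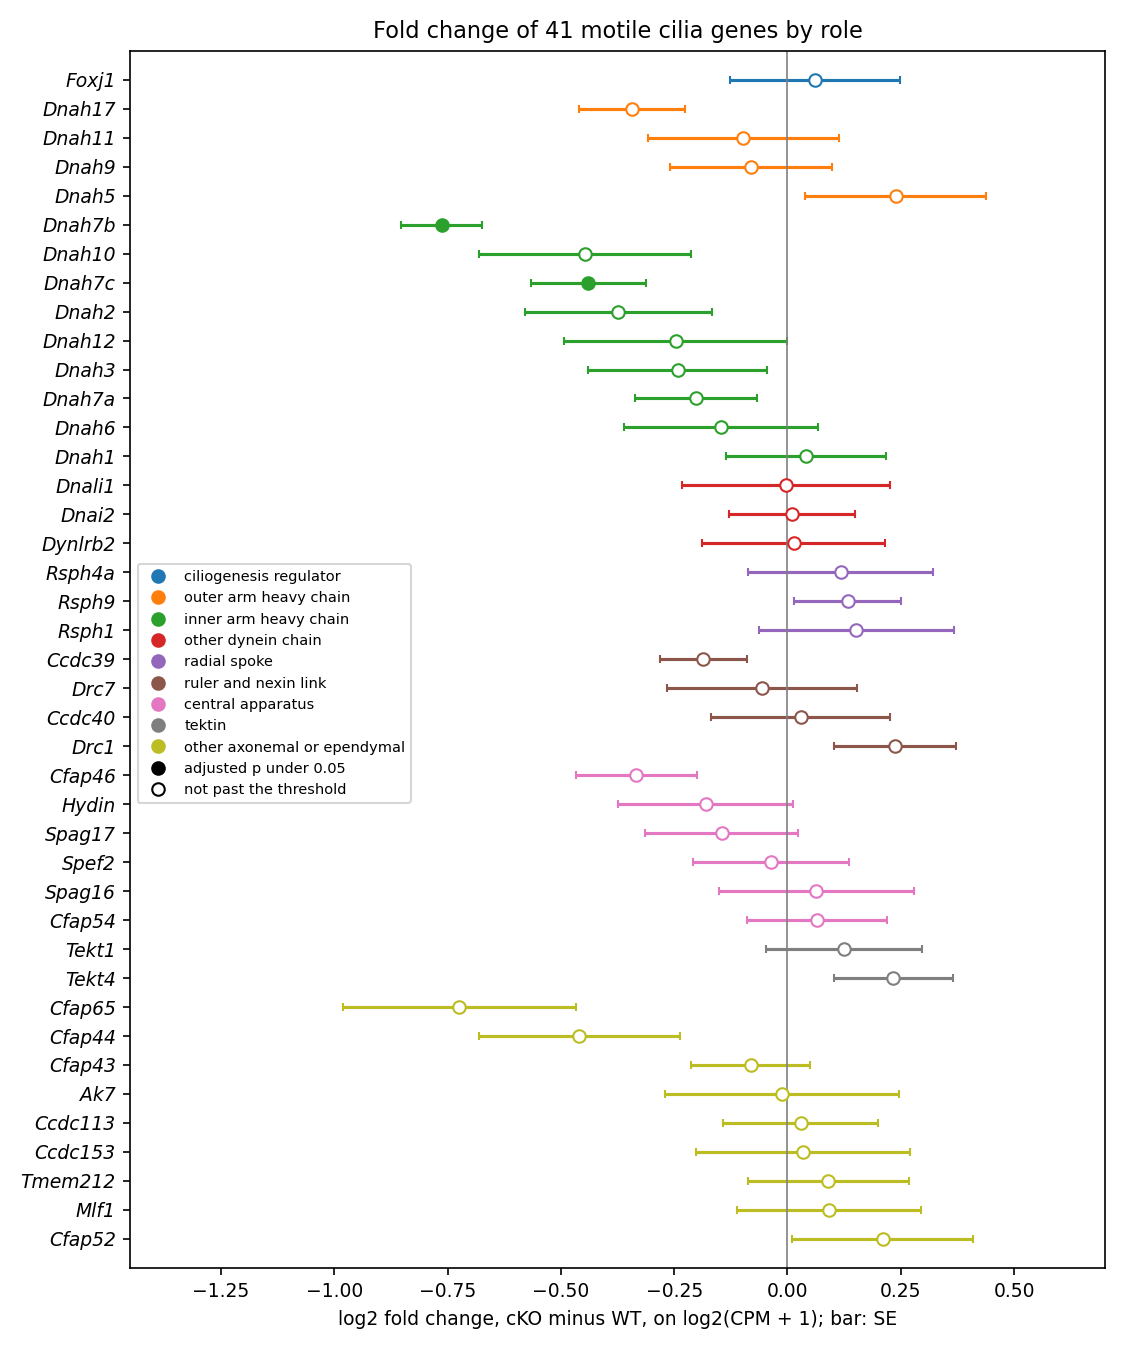
Log2 fold change, cKO minus WT, on log2(CPM + 1) (horizontal axis) of the 41 genes (vertical axis), coloured by role, with the SE from limma as a bar; filled points are past an adjusted p of 0.05. Dnah7b at -0.76 and Dnah7c at -0.44 are the 2 filled points, and Cfap65 at -0.72 has a much wider bar than Dnah7b.

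Most members were high or low together from mouse to mouse, within both groups. Likeness was measured as Pearson's r of the deviations from the group means of log2(CPM + 1) over the 12 libraries, and is a description because all genes share the same libraries. Of the 40 members other than Foxj1, 33 had an r with Foxj1 of at least 0.8 and 21 of at least 0.9, beside 4.17% and 1.15% of all tested genes. The highest were Dnah9 (0.97), Ccdc40 (0.97), Rsph4a (0.97), Dnah5 (0.96) and Cfap54 (0.96). The library cKO 8 was the highest of those labelled cKO in 37 of the 41 members and the highest of all 12 in 23. WT 4 was the lowest of those labelled WT in 36, and cKO 13 the lowest of those labelled cKO in 31. Foxj1 itself varied 2.28-fold between its lowest and highest library.

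Dnah7b did not follow this pattern closely. It was among the 6 members whose r with Foxj1 was below 0.7: Dnah7b (0.43), Dnah7c (0.47), Dnah7a (0.60), Tekt4 (0.56), Ccdc39 (0.67) and Dnah17 (0.20). For Dnah7b and Foxj1 the permutation p was 0.155 for Pearson's r of 0.433 and 0.0803 for Spearman's rho of 0.525 (n = 12; adjusted over 3 relations, 0.155 and 0.120). Without the 2 libraries farthest from the median of Foxj1, r was 0.517. Over the 7 libraries labelled WT alone r was 0.72, and in those labelled cKO Dnah7b was at 12.5 CPM in cKO 8 and 13.3 CPM in cKO 13, the libraries with the most and the least Foxj1.

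Dnah7c and Foxj1 had an r of 0.469 (permutation p = 0.140, adjusted 0.155) and a rho of 0.364 (permutation p = 0.270, adjusted 0.270), and r was 0.634 without the 2 farthest libraries and 0.88 over the 7 libraries labelled WT alone. Dnah7b and Dnah7c had an r of 0.707 (permutation p = 0.0174, adjusted 0.0521) and a rho of 0.664 (permutation p = 0.0160, adjusted 0.0481), with an r of 0.662 without the 2 farthest. These paralogs share part of their sequence, so part of their reads may be the same.

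The 5 genes most like Dnah7b across mice were Ddx17 (r = 0.975), Arglu1 (0.947), Tial1 (0.945), Crebzf (0.938) and Abcc5 (0.935), none of them a member. Ddx17, an RNA helicase gene, fell from 608 ± 66.3 CPM (n = 7, SD) to 487 ± 21.7 CPM (n = 5, SD), a log2 fold change of -0.31 (limma, SE 0.07, adjusted p = 0.0136). Tial1 and Abcc5 were also past the threshold, at -0.20 and -0.21, while Arglu1 (-0.12) and Crebzf (-0.08) were not. Among the members, Ccdc39 ranked nearest to Dnah7b, at place 17 of all tested genes (r = 0.88), followed by Dnah7c at 258 and Cfap65 at 305. Tmem212 was the farthest, at 6289. By contrast, the 5 genes most like Foxj1 were Maats1 (0.972), Dnah9 (0.968), Ccdc40 (0.967), Cfap45 (0.967) and Fam166c (0.967), and 2 of these are members.

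**Figure D3:**
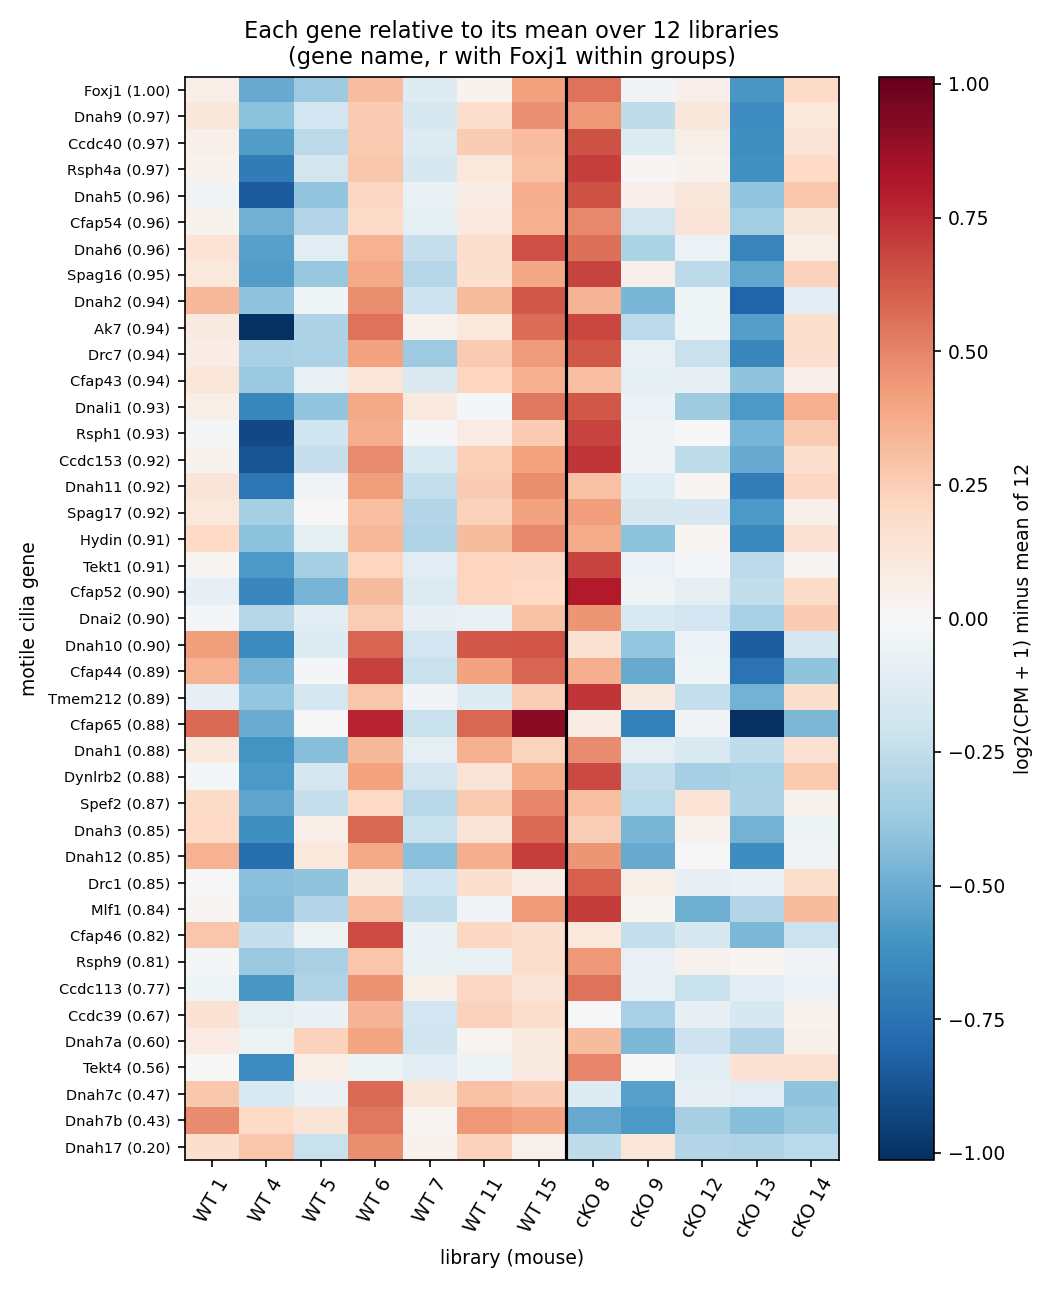
Log2(CPM + 1) of each of the 41 genes minus its mean over 12 libraries (colour), by library (horizontal axis, WT left of the line and cKO right of it) and gene (vertical axis), ordered by r with Foxj1. Most rows share the high values of cKO 8 and the low values of WT 4 and cKO 13; Dnah7b, near the bottom with an r of 0.43, is low in all 5 libraries labelled cKO.

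Because the members shared this variation, the fit was repeated with the log2 level of Foxj1 as a covariate, a choice made after seeing the data. Dnah7b then had a log2 fold change of -0.77 (limma, SE 0.08, adjusted p = 0.000497), nearly the same as before. Of the 40 members other than Foxj1, 9 (22.5%) were past the threshold and all 9 were lower. Over all tested genes in that fit, 22% were past the threshold in either direction and 11.1% were lower. The share of members called was near the background in either direction and above it in the lower direction, a difference that was not tested. In the second list of 83 motile cilia genes, described below, 7 (8.43%) were past the threshold in that fit, 5 lower and 2 higher. The median log2 fold change was -0.09 in the 40 members and -0.02 in the second list, beside 0.01 over all genes. The 9 members were Dnah7b, Dnah7c, Dnah2, Dnah6, Dnah10, Dnah17, Cfap44, Cfap46 and Cfap65, of which 6 are dynein heavy chains. Cfap65 was at -0.80 (limma, SE 0.13, adjusted p = 0.00200) and Dnah10 at -0.51 (limma, SE 0.11, adjusted p = 0.00693). Dnah5 was at 0.18 (limma, SE 0.06, adjusted p = 0.0651).

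Ratios to Foxj1 within libraries were also compared. The ratio of Dnah2 to Foxj1 was 0.389 to 0.527 in the libraries labelled WT and 0.296 to 0.387 in those labelled cKO, without overlap. The ratio of Dnah5 to Foxj1 was 0.500 to 0.674 and 0.676 to 0.742, higher in all 5 libraries labelled cKO. These were the only 2 members whose ratio ranges did not overlap, beside 0.436% of all tested genes in either direction and 0.41% in the lower direction. Without the division, 6.73% of all tested genes had no overlap in either direction. Division by Foxj1 adds its spread to genes that do not follow it. The shares are therefore not a like background for Dnah2 and Dnah5, which follow Foxj1 closely (r of 0.94 and 0.96).

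The ratio of Dnah7b to Foxj1 ran from 0.665 to 1.12 in the libraries labelled WT and from 0.309 to 0.747 in those labelled cKO. Its groups overlapped through cKO 13, the library with the least Foxj1. Dnah7b minus the median log2 level of the other 40 members was 0.793 to 1.69 in the libraries labelled WT and -0.208 to 0.9998 in those labelled cKO. The means differed by -0.68, with a pooled SD of 0.347, a description for which no test was run.

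**Figure D4:**
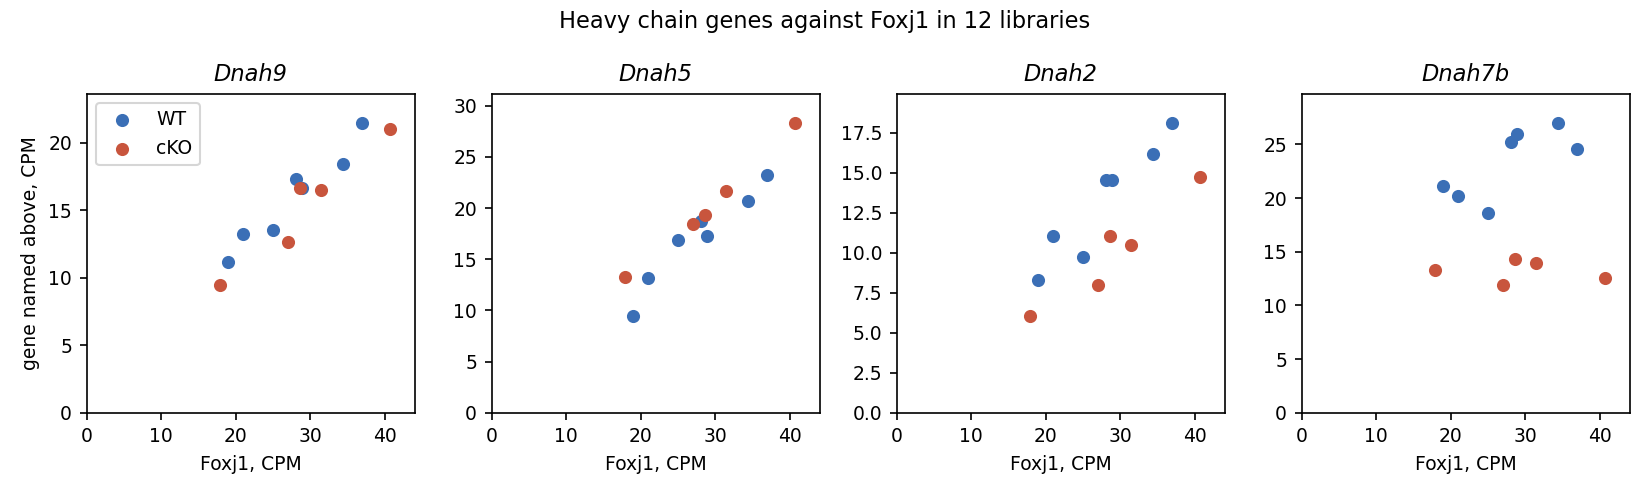
CPM of Dnah9, Dnah5, Dnah2 and Dnah7b (vertical axes) against CPM of Foxj1 (horizontal axes) in the 12 libraries, WT in blue and cKO in red. Dnah9, Dnah5 and Dnah2 climb with Foxj1 in both groups, while Dnah7b stays between 11.9 and 14.3 CPM in cKO over the whole range of Foxj1.

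Longer members tended to have lower fold changes. Over the 41 genes, which are not independent, Spearman's rho of log2 fold change and transcript length was -0.58, beside -0.18 over all tested genes. Of the 14 members with transcripts of at least 10 kb, 12 had a negative log2 fold change, with a median of -0.22. Of the 15 members under 3 kb, 2 were negative, with a median of 0.09. The 13 dynein heavy chains are among the longest transcripts, and 11 of them had a negative value. With GC content the rho was 0.16 in the members and -0.22 over all tested genes. Length and role cannot be told apart among the members, since all heavy chains are long.

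After a correction of each library for GC content and length, chosen after seeing the data, Dnah7b was at -0.69 (limma adjusted p = 0.00101) and was the only 1 of the 41 members past the threshold, beside 15% of all tested genes, 5.94% in the lower direction. Dnah7c was at -0.37 (limma adjusted p = 0.0742). Members of at least 10 kb with a negative value moved towards 0 or past it. Among them, Dnah3 was at -0.14, Dnah6 at -0.05, Hydin at -0.03, Dnah11 at 0.02 and Dnah9 at 0.06, with none of these past the threshold. The long members with a positive value moved away from 0, Dnah1 from 0.04 to 0.20 and Dnah5 from 0.24 to 0.36. Neither was past the threshold (limma adjusted p = 0.459 and 0.216). The rho of the members was then -0.36 with length and 0.32 with GC content. With both this correction and Foxj1 as a covariate, 10 of 40 members were past the threshold, beside 22.6% of all tested genes. Of these, 9 were lower, beside 8.67% of all tested genes, but they were not the 9 named above. Dnah6 (-0.18, limma adjusted p = 0.0611) and Dnah17 (-0.15, limma adjusted p = 0.378) were not past the threshold in this fit. Ccdc39 (-0.28, limma adjusted p = 0.0148) and Cfap43 (-0.16, limma adjusted p = 0.0455) were. The heavy chains that were lower were then Dnah7b, Dnah7c, Dnah2 and Dnah10. Dnah5 was higher, at 0.23 (limma adjusted p = 0.0389), where 13.9% of all tested genes were.

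**Figure D5:**
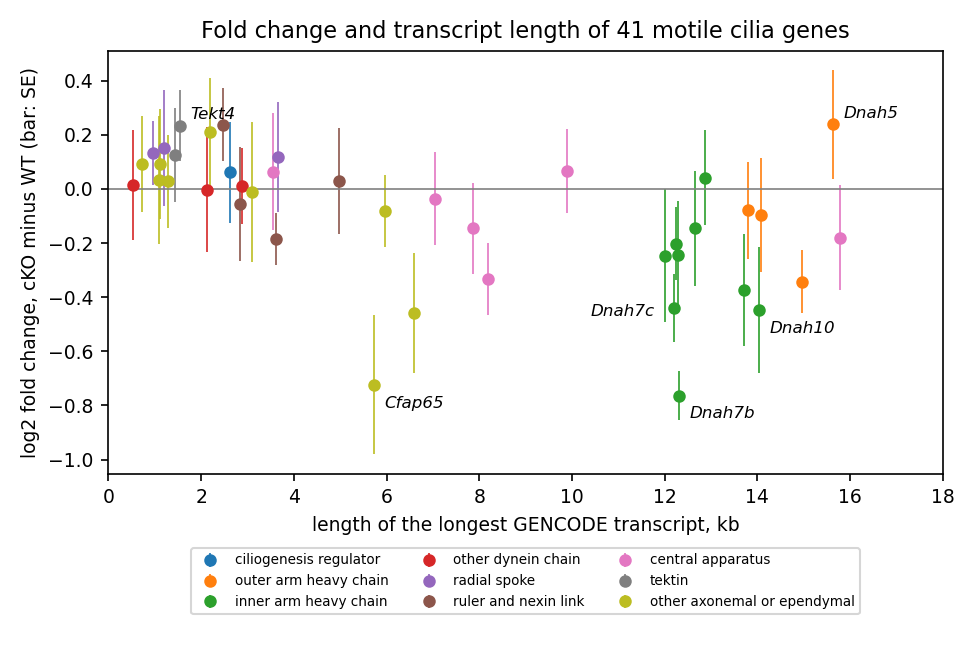
Log2 fold change, cKO minus WT, on log2(CPM + 1) with the limma SE as a bar (vertical axis) against the length of the longest GENCODE transcript in kilobases (horizontal axis) for 41 genes, coloured by role. Points at or above 10 kb lie mostly below 0 and points under 3 kb mostly above it, and Dnah7b lies below the other heavy chains of like length.

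Some members share exonic bases with another gene, which matters because the strand setting of the counting is not given in the sources used here. Of the 41, 15 shared some exonic bases in GENCODE M21, and 4 shared more than 5%. These were Ccdc39 with Ttc14 (16.9%), Spag17 with Spag17os and Wdr3 (15.7%), Dnah3 with Lyrm1 (10.5%) and Cfap52 with 9130017K11Rik (8.36%), in each case on the opposite strand. The share of reads from these bases was not measured, so the levels of those 4 are uncertain by an unknown amount. Dnah7a, Dnah7b and Dnah7c shared none.

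Other genes of motile cilia were examined through a second list of assembly factors, docking proteins, tektins and further axonemal genes, of which 83 were tested. One, Tppp3, a tubulin polymerization gene, rose from 96.7 ± 7.57 CPM (n = 7, SD) to 113 ± 11.9 CPM (n = 5, SD), a log2 fold change of 0.22 (limma, SE 0.07, adjusted p = 0.0497). It was not past the threshold in 10 of 12 fits without 1 mouse, all but those without WT 6 or cKO 12. The background was 14.1% of all tested genes called, 6.54% higher and 7.6% lower. By limma none of the 83 was lower, with 2 lower at an unadjusted p under 0.05, 0 by edgeR and 1 by DESeq2, where 15% of all tested genes were lower at that unadjusted p. The median log2 fold change was 0.00953. Of the 83, 50 had an r with Foxj1 of at least 0.8, and the median r was 0.85. The repeats described above were present in 15 of the 71 genes of this list with a promoter entry (21.1%).

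Genes of the primary cilium, the single non-motile cilium that most cells including neurons carry, formed a comparison list of 46. Of these, 6 were higher and 2 lower (17.4%, beside 14.1% of all tested genes). Bbs10, a chaperonin-like gene for the BBSome, rose by a log2 fold change of 0.46 (limma, SE 0.07, adjusted p = 0.00348). Arl6 rose by 0.28, the transport gene Ift74 by 0.22, Wdr35 by 0.21 and Rpgrip1l by 0.19, and Kifap3 was the remaining higher gene, at 0.16. Among the lower genes, the kinesin gene Kif17 had a log2 fold change of -0.27 (limma, SE 0.08, adjusted p = 0.0370).

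Markers of other cells that touch the ventricle were counted in the same fit. Of 7 tested choroid plexus markers none was past the threshold by limma or edgeR. At an unadjusted p under 0.05, where 15% of all tested genes were lower, 1 of the 7 was lower, as 1 was by DESeq2. The 12 matched summed to 58.2 to 94.1 CPM in the libraries labelled WT and 49.1 to 81.5 CPM in those labelled cKO. Of 10 tested tanycyte markers 1 (10%) was lower, near the 7.6% of all tested genes. The 12 matched tanycyte markers summed to 109 to 124 CPM and 99.3 to 124 CPM.

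Markers of neighbouring brain regions and of other cell types were counted as well. Of 12 thalamic and habenular markers 3 were lower, Prkcd (-1.44), Slitrk6 (-0.85) and Plekhg1 (-0.61), beside 7.6% of all tested genes, with 4 lower by edgeR and by DESeq2. At an unadjusted p under 0.05, 5 were lower, with Lef1 (-0.47) and Calb2 (-0.15) added, beside 15% of all tested genes. In the other direction 1 was higher, Gpr151 (0.49, limma adjusted p = 0.118), where 31.1% of all tested genes passed in either direction. The list summed to 937 to 1634 CPM in the libraries labelled WT and 682 to 1069 CPM in those labelled cKO. The mean log2 level of this list was 5.01 to 5.68 in the libraries labelled WT and 4.64 to 5.16 in those labelled cKO. It therefore follows the label in part. With this mean as a covariate, which was added once the data had been seen, Dnah7b was at -0.83 (limma adjusted p = 0.00857) and Dnah7c at -0.58 (limma adjusted p = 0.0478). They were the 2 members past the threshold in that fit, both lower, beside 5.07% of all tested genes, 3.17% in the lower direction. The 12 hypothalamic markers summed to 125 to 787 CPM and 209 to 810 CPM. Of these 12, 1 (8.33%), Sim1, was higher by limma, beside 6.54% of all tested genes, and also by edgeR and DESeq2. Sst, at -0.53 (limma adjusted p = 0.0602), was lower by edgeR and DESeq2 only. No marker in any of these lists was at 0 in all libraries. Across mice the r with Foxj1 was 0.72 for the mean log2 level of the hypothalamic list, -0.94 for that of 8 neuron markers and -0.84 for that of 8 oligodendrocyte markers. For Dnah7b these were 0.25, -0.58 and -0.30. Of 8 markers each, the endothelial and mural list had an r with Foxj1 of -0.85, the astrocyte list of -0.63 and the microglia list of -0.42. In these 3 lists none was past the threshold by limma, edgeR or DESeq2, beside 14.1% of all tested genes by limma. At an unadjusted p under 0.05, 0, 1 and 2 were higher and none was lower, beside 31.1% of all tested genes in either direction and 15% in the lower direction. Of the 8 neuron markers 1 (12.5%) was higher (Stmn2, at 0.20), beside 6.54% of all tested genes. At an unadjusted p under 0.05, 3 were higher and 0 lower, beside 31.1% of all tested genes in either direction and 15% in the lower direction. With Foxj1 as a covariate 4 (50%) were higher and 0 lower. In that fit 1681 of 15358 tested genes were higher, and 22% were past the threshold in either direction. The neuron list summed to 4501 to 5293 CPM in the libraries labelled WT and 4922 to 5862 CPM in those labelled cKO. Of the oligodendrocyte markers none was past the threshold by limma, edgeR or DESeq2, nor at an unadjusted p under 0.05, with sums of 4240 to 10208 CPM and 4973 to 10270 CPM. The part of the neuron, glial, vascular and hypothalamic markers in the levels of the members was not tested.

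The authors' deposited table of their own comparison covered 32494 genes, of which 15359 averaged at least 1 CPM, as all 41 members did. Shares over all 32494 include genes too low for the main test and are not a like background for the members. In the authors' deposited table, 4.94% of the 32494 genes had an FDR under 0.05, and 3.3% were lower. Of the members, 3 did and all were lower in the authors' deposited table: Dnah7b (log2 fold change -0.82, FDR 1.08e-10), Dnah7c (-0.54, FDR 0.0350) and Cfap65 (-0.80, FDR 0.0466). In the authors' deposited table Dnah7a was at -0.25 (FDR 0.664) and Foxj1 at 0.08 (FDR 1).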

How the data were processed

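Normalized CPM values, deposited by the authors, covered 32494 genes in 12 libraries. A second deposited table holds the authors' own test, with log2 fold change, log2 mean CPM, p-value and FDR. Per the submitters' processing notes, bcl2fastq, FastQC 0.11.9, STAR 2.7.9a, SAMtools, Subread and featureCounts were used. The genome build, annotation, strand setting and handling of multi-mapping reads are not given in the sources used here. Dividing each deposited CPM column by its smallest step gave whole reads for 100% of values, within 1e-06. The floor of 3 reads was 0.0436 to 0.178 CPM and covers counting error only.

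The main test was limma 3.58.1 (R 4.3.3), with trended empirical Bayes (eBayes), on log2(CPM + 1) over all 12 libraries. It covered 15359 genes averaging 1 CPM or more, with Benjamini-Hochberg adjustment over all of them and a threshold of 0.05. This scale understates changes of low genes. The fit was tested on simulated counts. Single within-library differences were compared by two-sided exact permutation tests. Alternatives were a pseudocount of 0.1, all genes above 0, a mean of at least 5 CPM, median centring, quantile normalization, eBayes without trend, edgeR 4.0.16 and DESeq2 1.42.0 on the recovered reads, and leaving out each mouse. Added after seeing the data were Foxj1 or a thalamic score as a covariate and a spline correction for GC content and length (genes with both, 94.5% of those tested). Transcripts were aligned with mafft 7.526.

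Groups came from the titles. The labels name separate mice but no batch. The members and lists were chosen with earlier results of these data known. Values of single libraries labelled cKO, with the lowest, median and highest of those labelled WT, are given for Dnah7b, its paralogs, the ependymal markers Foxj1, Ccdc153 and Tmem212, called members and the 3 largest log2 fold changes in each direction; 5 genes most like Dnah7b are named. Single genes of the comparison lists are in part not reported here.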

Additional observations from a re-analysis of the deposited data

Results flagged for a closer look

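Single libraries that stood apart within their group were looked for in 15 genes, or 30 groups of values, by the gap of the highest or lowest library to its neighbour relative to the range of the group. Chance gives about 1 in 20, or 1.5 of 30 groups, and 2 were found. Tekt4 was at 1.68 CPM in WT 4, the lowest of the group, where the next library was at 2.86 CPM. Dnah17 was at 2.65 CPM in cKO 9, the highest of that group, where the next was at 1.80 CPM. Without cKO 9 Dnah17 had a log2 fold change of -0.42 and was past the threshold (limma adjusted p = 0.0378). Over all 12 libraries with the GC and length correction it was at -0.16 (limma adjusted p = 0.379), and at -0.15 (limma adjusted p = 0.378) with Foxj1 as a covariate as well.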

How the results depend on the processing

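Dnah7b was past the threshold in all 12 alternatives, with log2 fold changes from -0.83 to -0.69 and limma, edgeR or DESeq2 adjusted p up to 0.00857, and in all 12 fits that left out 1 mouse (-0.81 to -0.73). Smc3 kept its direction and call in the same fits, from 0.64 to 0.74. The differences within libraries were computed under 3 alternatives (pseudocount, median centring and quantile normalization) and without each mouse. Dnah7b minus Dnah7a ran from -0.62 to -0.43 over these, minus Dnah7c from -0.38 to -0.27 and minus Foxj1 from -0.99 to -0.68. Exact permutation p was at most 0.0101, 0.0429 and 0.00909.

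Members past the threshold numbered 1 over all genes above 0, where Dnah7c had a limma adjusted p of 0.0837 and 1544 of 31802 genes were called. They were 1 at a mean of at least 5 CPM, where Dnah7c was under the minimum and 1987 of 12188 genes were called. With the GC and length correction they were 1, beside 15% of all tested genes. DESeq2 gave 4, all lower, adding Cfap65 and Dnah17. It called 2747 of 15359 tested genes, 1525 of them lower. With Foxj1 as a covariate members past the threshold were 9, and 10 with the GC and length correction as well, beside 22% and 22.6% of all tested genes. Leaving out 1 mouse gave 1 to 3, with 1 without WT 1, WT 6, WT 11, WT 15 or cKO 14, and 3 without WT 4 (Cfap65) or WT 5 (Dnah17). Other genes of motile cilia past the threshold numbered 0 over all genes above 0, without trend, by edgeR and with the thalamic score. They were 2 by DESeq2 and between 0 and 1 without 1 mouse. With Foxj1 as a covariate they were 7 (5 lower, 2 higher), and 10 (9 lower, 1 higher) with the GC and length correction as well, beside the same 22% and 22.6%. Primary cilium genes numbered 14 with Foxj1 as a covariate (beside 22%), 4 with the thalamic score (beside 5.07%), and between 7 and 9 without 1 mouse.

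Over all tested genes the count was 3382 with Foxj1 as a covariate, 779 with the thalamic score, 3281 with Foxj1 and the GC and length correction, and 1158 (without WT 1) to 2302 without 1 mouse. edgeR called 2097 and DESeq2 2747. By direction, 1377 were higher and 1054 lower with median centring, against 1318 and 862 once GC content and length were corrected for. Of 1165 values of single named genes, 39 lost the threshold, 20 gained it, 0 reversed while called and 1106 did none of these. The causes were not tested. No paired analysis was possible because the 2 groups share no mouse number. Low read numbers limit Dnah7a (33 to 192 reads) and Dnah17 (30 to 190 reads).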
